A study of Mus musculus with 27 samples.

Results

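The comparison set hippocampal messenger RNA of sham-operated ICR mice given xanthohumol (Xmo) against that of sham-operated ICR mice given saline. Sham surgery leaves the ovaries in place, so these 7 libraries (4 sham Xmo, 3 sham saline) describe the compound in mice with ovaries. They were chosen by their labels alone, from 15 mRNA libraries and 27 samples in the whole series. The other 8 mRNA libraries, used for the shared estimate of spread and for 1 further comparison, came from ovariectomized (OVX) ICR mice, 4 given Xmo and 4 given saline. The labels give no dose, duration or age, and do not say whether the libraries of a group came from separate animals, so the p-values measure the spread between these libraries, which may be technical.

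Xanthohumol is a prenylated chalcone from the hop plant. In other systems it is known as an electrophile that activates the NRF2 antioxidant programme and as a compound that acts on energy and lipid metabolism. Its gut-derived relative, 8-prenylnaringenin, is a phytoestrogen. The hippocampus, a brain region needed for memory, carries estrogen receptors, and the ovaries are the main source of circulating estradiol. In brain tissue most messenger RNA comes from neurons and glia, while choroid plexus, meninges, vessels and blood enter with the dissection.

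Libraries held 27551505 to 39135047 counts in sham Xmo and 28682463 to 29552049 counts in sham saline. Levels are given below as CPM, a gene's counts relative to its library total, after TMM scaling, a correction for libraries in which a few genes take a large part of the counts. Granule cell and pyramidal cell genes of the hippocampus were present in every library: Prox1 ranged over 133 to 203 CPM and Neurod6 over 211 to 385 CPM in the 15 mRNA libraries. Their levels were not even in all cases. The pyramidal cell gene Wfs1 ranged over 34.4 to 143 CPM, and the sham saline libraries alone spanned that range. Fibcd1 ranged over 36.3 to 84.7 CPM. In composition, sham saline 2 and sham saline 3 stood apart, while sham saline 1 lay close to sham Xmo 1. The 13 protein genes of the mitochondrial genome took 14.3 to 19.2% of counts in sham Xmo and 18.96 to 34.1% in sham saline, against 11.9 to 16.5% in the 8 OVX libraries. TMM factors were 0.976 to 1.07 in sham Xmo and 0.726 to 0.969 in sham saline, and sham saline 2 lay farthest out on the first principal component.

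**Figure D1:**
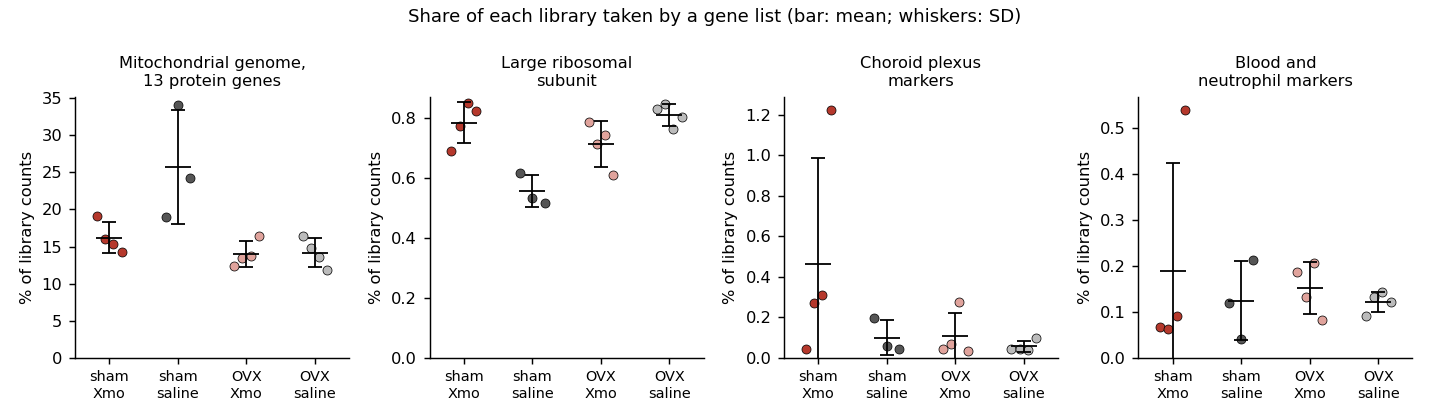
Share of each library's counts (%, vertical axis) taken by 4 gene lists in sham Xmo, sham saline, OVX Xmo and OVX saline libraries; points are libraries, horizontal bars the mean and whiskers the SD, cut at 0. Sham saline 2 reached 34.1% for the mitochondrial genes, and sham Xmo 4 reached 1.23% for choroid plexus markers and 0.539% for blood markers.

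Of 19969 genes tested, 302 differed between sham Xmo and sham saline (1.51%; edgeR quasi-likelihood test, Benjamini-Hochberg adjusted p under 0.05 over all genes). In sham Xmo, 144 were higher (0.721%) and 158 lower (0.791%). Most changes were small: the median log2 fold change was 0.54 among the higher genes and -0.73 among the lower ones, and 13 higher and 41 lower genes passed a 2-fold change. The higher group held subunits of the respiratory chain, the ribosome and the proteasome and antioxidant enzymes; the lower group held genes of the synaptic vesicle cycle, neuronal cytoskeleton genes and 9 mitochondrial genome genes, 8 of them protein genes. In 299 of the 302 the library values of the groups did not overlap, which was true of 14.2% of all tested genes.

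In 217 of the 302 genes (71.9%), the 3 sham saline libraries lay outside the range of all 12 other mRNA libraries, OVX included, against 5.05% of tested genes. In 19 (6.29%), the 4 sham Xmo libraries lay outside the range of the 11 others, against 0.381% of tested genes. Both patterns require sham groups without overlap, which 299 of the 302 had, against 14.2% of tested genes. The excess over all tested genes is therefore in part fixed by the calls. Relative transcript length, taken as counts per deposited TPM with the median gene near 1.00, had a median of 0.635 among higher genes and 1.36 among lower genes. Length, the mitochondrial share and the sham saline libraries thus moved with the comparison, and their part in the result was not tested. The count rested on single libraries: it was 673 without sham Xmo 1, 126 without sham Xmo 2, 27 without sham Xmo 3 and 50 without sham Xmo 4. It was 375 without sham saline 1, 227 without sham saline 2 (50 higher, 177 lower) and 14 without sham saline 3. With the spread taken from the 7 sham libraries alone it was 6. All 302 kept their sign in each of those leave-one-out fits, and 301 did with the sham libraries alone. In 299 of the 302 the groups did not overlap, so leaving out 1 library could hardly turn a sign. The kept signs are therefore no separate support for the calls.

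**Figure D2:**
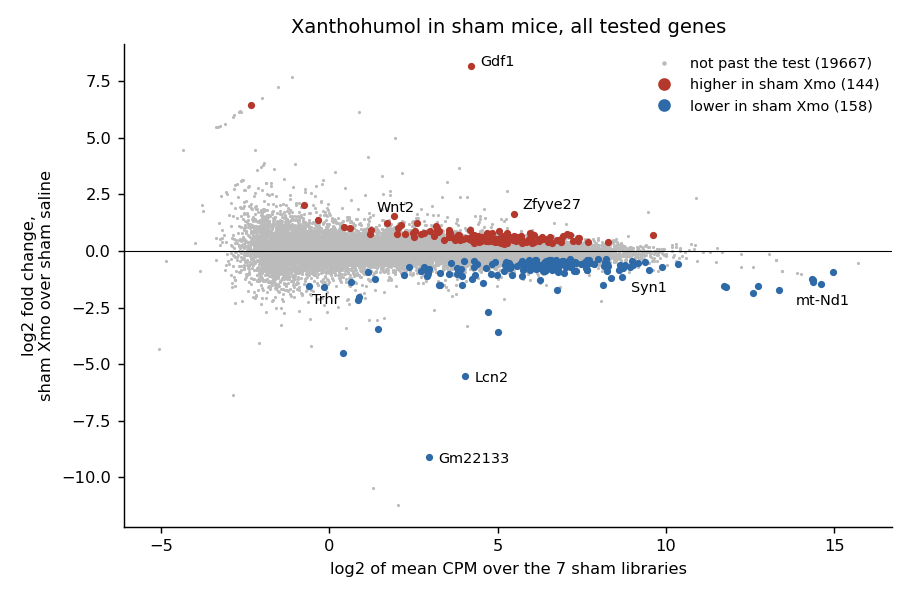
log2 fold change of sham Xmo over sham saline (vertical axis) against the log2 mean CPM over the 7 sham libraries (horizontal axis) for 19969 tested genes. The 144 genes higher in sham Xmo (red) and the 158 lower (blue) lie mostly within 2-fold of no change; 13 higher and 41 lower genes lie beyond it, with Gdf1 and Gm22133 farthest out.

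The clearest neuronal group among the lower genes was the synaptic vesicle cycle, the proteins that dock, prime and fuse transmitter vesicles. Of 51 list members tested, 8 fell in sham Xmo and none rose, where 0.791% of all tested genes were lower. The list's median log2 fold change was -0.37, against 0.03 over all tested genes. This list and the others below were chosen with earlier results of these data known, so their counts are no independent test. Syn1, which tethers vesicles in the reserve pool, had 258, 225, 285 and 302 CPM in sham Xmo, against 545, 447 and 810.4 CPM in sham saline (log2 fold change -1.17 ± 0.17 (SE), adjusted p = 0.0105). Vamp2, the vesicle SNARE, had 547, 531, 543 and 553 CPM in sham Xmo, against 857, 819 and 1236 CPM in sham saline (log2 fold change -0.84 ± 0.13 (SE), adjusted p = 0.0144). For both genes sham saline 3 was the highest library, and no sham Xmo library reached the lowest sham saline value. Pclo, an active zone scaffold, had 288, 254, 244 and 218 CPM in sham Xmo, against 352, 398 and 433 CPM in sham saline (log2 fold change -0.65 ± 0.11 (SE), adjusted p = 0.0178). Sncb (log2 fold change -0.88, adjusted p = 0.0188), which encodes beta-synuclein, and Rab3a (log2 fold change -0.57, adjusted p = 0.0256), a vesicle GTPase, were also lower, again with separate groups. The 8 members were reduced to 3 without sham Xmo 3 or without sham saline 3 and to 5 without sham Xmo 4; without sham saline 2 there were 10.

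Pan-neuronal markers moved the same way in 4 of 20 members, with none higher and a list median of -0.35. The lower share over all tested genes was 0.791%. They were Celf4 (log2 fold change -0.86, adjusted p = 0.0249), an RNA-binding protein of neurons, the neurofilament genes Nefm (log2 fold change -0.53, adjusted p = 0.0256) and Ina (log2 fold change -0.48, adjusted p = 0.0418), and Elavl3 (log2 fold change -0.36, adjusted p = 0.0388), another neuronal RNA-binding protein. Celf4 had 382, 259.8, 292 and 223 CPM in sham Xmo, against 472, 512 and 593 CPM in sham saline, so that sham Xmo 1 stood nearest to the sham saline values without overlapping them. The list as a whole took 1.06 to 1.25% of counts in sham Xmo and 0.903 to 1.24% in sham saline, and these ranges overlapped. The mean difference in share was 0.0352 percentage points, and it turned to -0.134 with mitochondrial counts left out of the total. Fewer cells of a type and less RNA per cell cannot be told apart in tissue libraries. Without sham Xmo 3, sham Xmo 4 or sham saline 3 none of the 4 passed, 1 passed without sham Xmo 2, and 7 members did without sham saline 2. Among 47 genes for glutamate receptors and postsynaptic scaffolds 2 fell and none rose (median -0.24). Cacng2 (stargazin), the AMPA receptor auxiliary subunit, had 61.8, 57.8, 50.5 and 42.9 CPM in sham Xmo, against 75.9, 91.3 and 111 CPM in sham saline (log2 fold change -0.80 ± 0.15 (SE), adjusted p = 0.0246). Dlgap4, a scaffold gene of the same compartment, had 131, 130.3, 134 and 134 CPM in sham Xmo, against 162, 172 and 228 CPM in sham saline (log2 fold change -0.50 ± 0.11 (SE), adjusted p = 0.0407). Sham saline 3 was again the highest library for both, and without it, or without sham Xmo 3 or 4, neither passed. There was 1 list member past the test without sham Xmo 2, and there were 4 without sham saline 1 and 3 without sham saline 2.

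**Figure D3:**
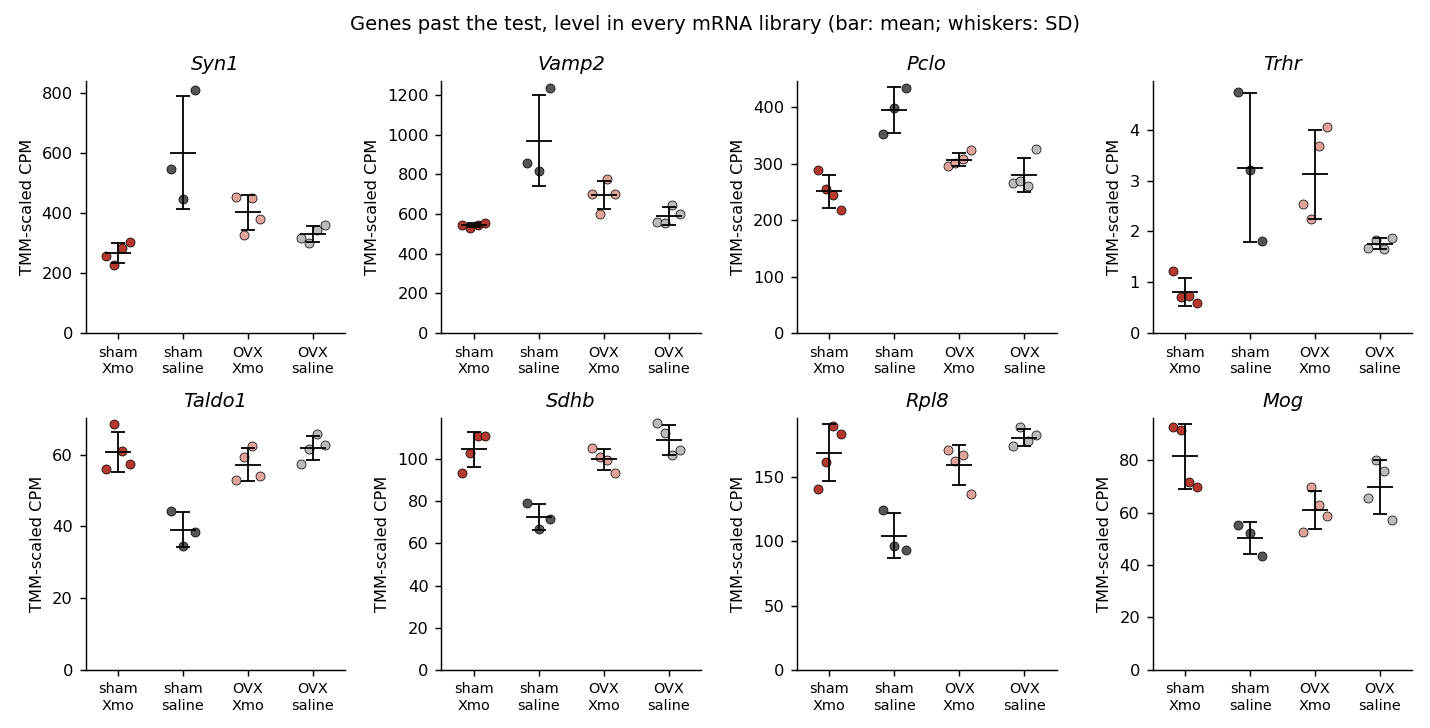
TMM-scaled CPM of 8 genes (vertical axis, from 0) in every mRNA library of the sham Xmo, sham saline, OVX Xmo and OVX saline groups; bars are means and whiskers SD. Syn1, Vamp2, Pclo and Trhr were lower, and Taldo1, Sdhb, Rpl8 and Mog higher, in sham Xmo than in sham saline, with no overlap.

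Receptors for amines and peptides showed 2 lower members of 49 and none higher, where 0.791% of all tested genes were lower. Trhr, the receptor for thyrotropin-releasing hormone, had 1.22, 0.706, 0.728 and 0.594 CPM in sham Xmo, against 4.75, 3.22 and 1.81 CPM in sham saline (log2 fold change -2.02 ± 0.32 (SE), adjusted p = 0.0174). All 4 sham Xmo libraries were below every other mRNA library, since the 8 OVX libraries ranged over 1.66 to 4.07 CPM. Adra2a, the alpha-2A adrenoceptor, had 5.55, 6.45, 5.23 and 5.07 CPM in sham Xmo, against 9.605, 6.53 and 10.8 CPM in sham saline (log2 fold change -0.69 ± 0.16 (SE), adjusted p = 0.0481), and here sham Xmo 2 and sham saline 2 nearly met. In this list 1 member passed without sham Xmo 1, 2 or 4, without sham saline 1 or without sham saline 3, and none without sham Xmo 3. Of 36 growth factor genes 3 fell and none rose (median -0.14). Igf1r, the receptor for insulin-like growth factor 1, had 65.3, 57.7, 60.4 and 64.7 CPM in sham Xmo, against 79.9, 82.9 and 82.8 CPM in sham saline (log2 fold change -0.40 ± 0.08 (SE), adjusted p = 0.0287). Its groups were both tight and well separated. The ligand genes Nrg3 (log2 fold change -0.49, adjusted p = 0.0256) and Tgfb2 (log2 fold change -0.57, adjusted p = 0.0388) were the other two. Bdnf, measured because it is the best known hippocampal neurotrophin, had 50.7, 39.4, 45.7 and 39.6 CPM in sham Xmo, against 42.7, 40.2 and 49.01 CPM in sham saline (log2 fold change -0.00 ± 0.14 (SE), adjusted p = 0.991), with full overlap. None of the 3 passed without sham Xmo 2, sham Xmo 4 or sham saline 3, and 1 did without sham Xmo 3. Igf1r was also the only member of 22 tested genes of estrogen signalling and neurosteroid synthesis past the test. The receptor genes themselves had overlapping or adjacent values: Esr1 had 0.779, 1.92, 1.39 and 1.58 CPM in sham Xmo, against 1.99, 1.59 and 1.35 CPM in sham saline (log2 fold change -0.21 ± 0.33 (SE), adjusted p = 0.786), and Pgr had 20.2, 17.97, 12.6 and 14.4 CPM in sham Xmo, against 22.7, 21.2 and 24.4 CPM in sham saline (log2 fold change -0.48 ± 0.15 (SE), adjusted p = 0.105).

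Mitochondrial and nuclear genes of the respiratory chain went in opposite directions. The mitochondrial genome encodes core subunits of complexes I, III, IV and V. In sham Xmo 8 of its 13 protein genes fell, against 0.791% of all tested genes, and none rose. The median log2 fold change was -1.23. mt-Nd1, a complex I subunit, had 20423, 13671, 12179 and 10693 CPM in sham Xmo, against 21321, 60091 and 34732 CPM in sham saline (log2 fold change -1.44 ± 0.31 (SE), adjusted p = 0.0357). mt-Atp8, a subunit of ATP synthase, had 4919, 4011, 3175 and 2838 CPM in sham Xmo, against 5558, 16743 and 10259 CPM in sham saline (log2 fold change -1.54 ± 0.31 (SE), adjusted p = 0.0293). In both genes sham saline 2 was the highest library, and sham Xmo 1 and sham saline 1 lay close together. The other members past the test were mt-Nd5 (-1.23), mt-Nd2 (-1.30), mt-Nd6 (-1.86), mt-Nd4l (-1.60), mt-Nd4 and mt-Cytb, with log2 fold changes in parentheses for the first 4. Without sham saline 2, sham saline 3, sham Xmo 2, sham Xmo 3 or sham Xmo 4, none of the 13 passed. The transfer RNA gene mt-Tm was lower too (log2 fold change -1.74 ± 0.30 (SE), adjusted p = 0.0188), as was Gm28439 (log2 fold change -1.74 ± 0.37 (SE), adjusted p = 0.0342), a feature outside the mitochondrial protein list. Nuclear copies of mitochondrial sequence can share reads with these genes, so the split between them is uncertain.

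Among the nuclear subunits, 5 of 39 genes for complexes II to V rose and none fell (median 0.25), and 2 of 36 complex I genes rose and none fell (median 0.22). The higher share over all tested genes was 0.721%. Sdhb, the iron-sulfur subunit of succinate dehydrogenase, had 93.6, 103, 111 and 111 CPM in sham Xmo, against 79.1, 67.1 and 71.8 CPM in sham saline (log2 fold change 0.53 ± 0.09 (SE), adjusted p = 0.0186). Atp5e, the epsilon subunit of ATP synthase, had 30.4, 31.3, 37.4 and 41.5 CPM in sham Xmo, against 21.1, 21.04 and 18.3 CPM in sham saline (log2 fold change 0.80 ± 0.14 (SE), adjusted p = 0.0189). Cox5a, a subunit of cytochrome c oxidase, had 50.8, 51.8, 55.4 and 53.7 CPM in sham Xmo, against 33.8, 36.3 and 29.6 CPM in sham saline (log2 fold change 0.67 ± 0.13 (SE), adjusted p = 0.0256). In these 3 genes the 4 sham Xmo libraries lay above all 3 sham saline libraries, and the sham saline libraries lay below all 12 others. Sdhd (log2 fold change 0.45, adjusted p = 0.0339) and Uqcrfs1 (log2 fold change 0.42, adjusted p = 0.0499), from complexes II and III, and Ndufs3 (log2 fold change 0.48, adjusted p = 0.0252) and Ndufb6 (log2 fold change 0.50, adjusted p = 0.0303), from complex I, were higher by less. Counts for complexes II to V were 3 without sham Xmo 2, 3 without sham saline 2, 12 without sham Xmo 1, and none without sham Xmo 3, sham Xmo 4 or sham saline 3. Complex I had none without any one of sham Xmo 2, 3 and 4 or sham saline 2 and 3, and 6 without sham Xmo 1. The 39 genes together took 0.461 to 0.586% of counts in sham Xmo and 0.316 to 0.457% in sham saline; the shares did not overlap, though the exact permutation test of 4 against 3 libraries cannot go below 0.0571 (two-sided), which this share reached (0.185 adjusted over 55 lists). In all, 17 of the 55 lists reached it. The total includes mitochondrial counts, whose 13 protein genes took 14.3 to 19.2% in sham Xmo and 18.96 to 34.1% in sham saline.

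**Figure D4:**
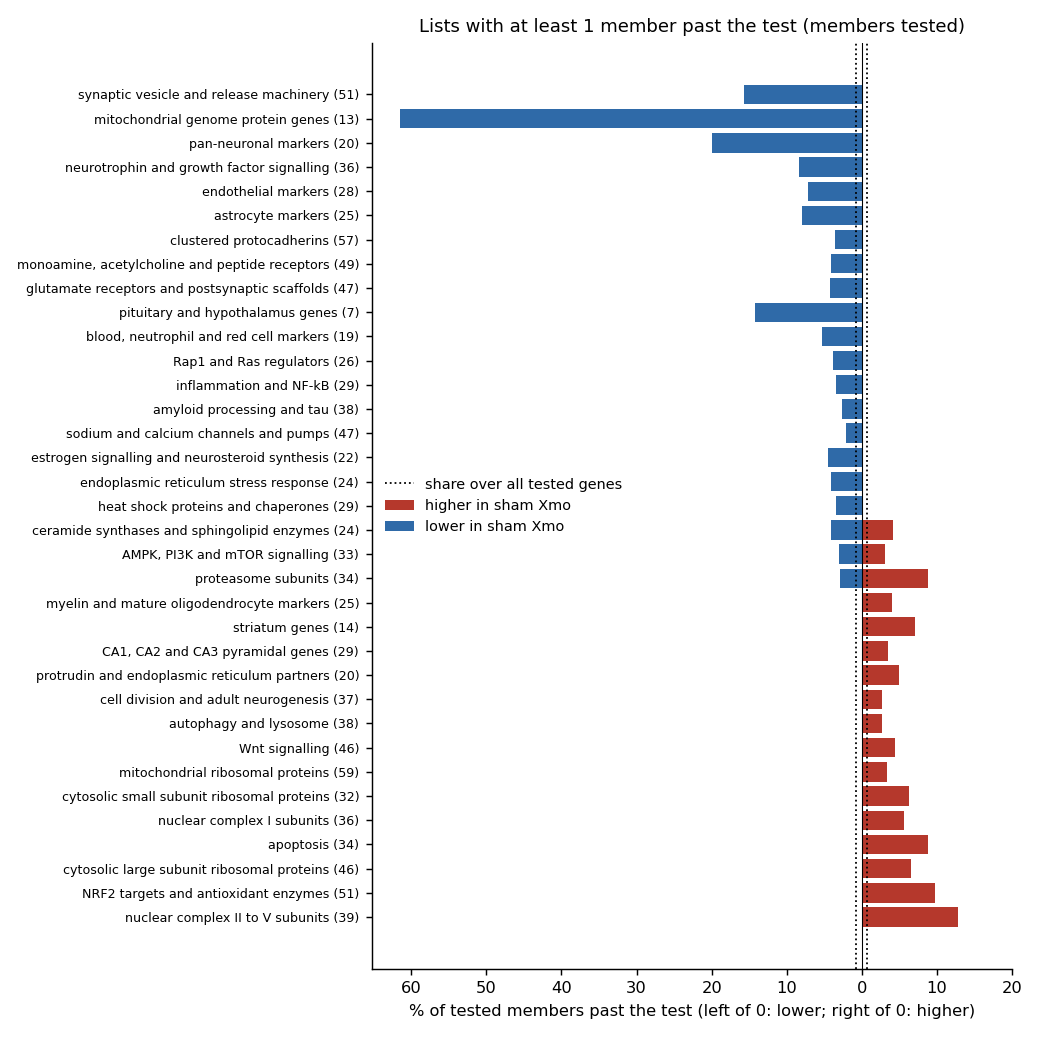
Percentage of tested members past the test in each of the 35 lists with at least 1 (horizontal axis; lower in sham Xmo to the left of 0, higher to the right; tested members in parentheses). Dotted lines mark the shares over all tested genes, 0.721% higher and 0.791% lower.

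Ribosomal protein genes rose in 3 of 46 for the large subunit (median 0.21) and in 2 of 32 for the small subunit (median 0.25), with none lower. Of all tested genes 0.721% were higher and 0.791% lower. Rpl8 had 141, 161, 189 and 183 CPM in sham Xmo, against 124, 96.1 and 92.9 CPM in sham saline (log2 fold change 0.69 ± 0.12 (SE), adjusted p = 0.0211). Rps14 had 152, 142, 179 and 176 CPM in sham Xmo, against 111, 96.4 and 80.6 CPM in sham saline (log2 fold change 0.76 ± 0.14 (SE), adjusted p = 0.022). Sham Xmo 3 was the highest library and sham saline 3 the lowest in both, and the groups were apart. Rpl10 (log2 fold change 0.53, adjusted p = 0.0256) and Rplp0 (log2 fold change 0.57, adjusted p = 0.0398) were also higher, and many ribosomal protein genes have processed pseudogenes that can share reads. One such feature, Rpl9-ps6, went the other way (0.6097, 0.7304, 1.005 and 0.495 CPM in sham Xmo, against 1.26, 5.48 and 2.997 CPM in sham saline; log2 fold change -2.18 ± 0.47 (SE), adjusted p = 0.035). The large subunit list took 0.691 to 0.849% of counts in sham Xmo and 0.518 to 0.618% in sham saline. Here too the total includes the mitochondrial counts. Of 59 mitochondrial ribosomal proteins 2 rose, Mrps28 (log2 fold change 0.75, adjusted p = 0.028) and Mrpl28 (log2 fold change 0.48, adjusted p = 0.0297) (list median 0.11). The proteasome, which degrades ubiquitin-tagged proteins, had 3 higher and 1 lower gene of 34 (median 0.19). Psmb5, the catalytic subunit with chymotrypsin-like activity, had 43.96, 53.3, 58.98 and 51.4 CPM in sham Xmo, against 37.8, 34.1 and 35.8 CPM in sham saline (log2 fold change 0.53 ± 0.10 (SE), adjusted p = 0.0256). Psmb4 (log2 fold change 0.54, adjusted p = 0.0303) and Psmc2 (log2 fold change 0.46, adjusted p = 0.0287) were also higher, whereas Psme3, an activator subunit outside the standard particle, was lower at 82.4, 90.3, 80.2 and 83.2 CPM in sham Xmo, against 106, 107 and 118 CPM in sham saline (log2 fold change -0.39 ± 0.07 (SE), adjusted p = 0.0246). Without sham Xmo 3, sham Xmo 4 or sham saline 3, no ribosomal, mitochondrial ribosomal or proteasome member passed. Higher members of the 4 lists, in the order given here, numbered 2, 1, 0 and 0 without sham Xmo 2, 1, 1, 1 and 0 without sham saline 2, 2, 1, 2 and 3 without sham saline 1, and 5, 4, 4 and 4 without sham Xmo 1.

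NRF2 is a transcription factor that turns on antioxidant and detoxifying genes after exposure to electrophiles. Of 51 NRF2 targets and antioxidant enzymes tested, 5 rose in sham Xmo and none fell (median 0.20), where 0.721% of all tested genes were higher. Taldo1 (transaldolase), of the pentose phosphate pathway that supplies NADPH, had 55.9, 68.6, 60.99 and 57.5 CPM in sham Xmo, against 44.3, 34.5 and 38.5 CPM in sham saline (log2 fold change 0.64 ± 0.10 (SE), adjusted p = 0.0178). Gpx4, which reduces lipid hydroperoxides, had 166, 186, 214 and 213 CPM in sham Xmo, against 137, 133 and 122 CPM in sham saline (log2 fold change 0.58 ± 0.10 (SE), adjusted p = 0.022). The sham saline values were the low ones against all 12 other libraries in both genes. The peroxiredoxins Prdx5 (log2 fold change 0.53, adjusted p = 0.0246), Prdx6 (log2 fold change 0.47, adjusted p = 0.0276) and Prdx2 (log2 fold change 0.40, adjusted p = 0.0326) were the other three. Prdx6 had 119, 124, 124 and 124 CPM in sham Xmo, against 93.7, 90.9 and 81.5 CPM in sham saline, with sham Xmo 1 just below its 3 neighbours.

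The best known inducible NRF2 targets were not among them. Nqo1, a quinone reductase, had 4.06, 4.601, 5.65 and 9.18 CPM in sham Xmo, against 3.597, 5.09 and 3.08 CPM in sham saline (log2 fold change 0.59 ± 0.25 (SE), adjusted p = 0.228), and its highest library was sham Xmo 4. Hmox1, which degrades heme, had 3.22, 5.75, 5.09 and 5.57 CPM in sham Xmo, against 4.23, 5.91 and 5.66 CPM in sham saline (log2 fold change -0.10 ± 0.18 (SE), adjusted p = 0.827), and Gclc, the catalytic subunit of glutathione synthesis, had 66.5, 76.6, 66.6 and 62.6 CPM in sham Xmo, against 70.8, 84.9 and 80.8 CPM in sham saline (log2 fold change -0.21 ± 0.09 (SE), adjusted p = 0.215). All 3 genes overlapped between the groups. Nfe2l2, which encodes NRF2, had 21.7, 24.98, 22.2 and 22.6 CPM in sham Xmo, against 20.8, 20.6 and 17.1 CPM in sham saline (log2 fold change 0.23 ± 0.10 (SE), adjusted p = 0.248); the sham Xmo values were the highest of the 15 libraries, with OVX libraries at 16.6 to 20.6 CPM, but the gene did not pass. The 5 list members past the test became 2 without sham Xmo 2, 1 without sham Xmo 4, none without sham Xmo 3 or sham saline 3, and 8 without sham Xmo 1.

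The start regions of 2 genes that fell and 2 that rose are shown as examples. Rap1gap2 was the only member of its list past the test, and shared regulation was not tested. The sequences are those of RefSeq on GRCm38.p6, 300 bases each, 5′ to 3′ on the gene's strand. Capitals in Syn1 (chrX:20920869-20921168, minus strand) mark 2 copies of CAGCACC, a part of the RE1 element bound by the neuronal repressor REST, and 1 copy of TGACGTCA, the cAMP response element. In Rap1gap2 (chr11:74610866-74611165, minus strand) they mark 2 GC boxes (GGGCGG on either strand), the motif of SP1, and 1 match to TGACNNNGC, the core of the antioxidant response element. Sdhb (chr4:140961021-140961320, plus strand) has 3 GC boxes and Taldo1 (chr7:141391910-141392209, plus strand) has 1, all in capitals. No motif matches overlapped in these 4 windows.
Syn1: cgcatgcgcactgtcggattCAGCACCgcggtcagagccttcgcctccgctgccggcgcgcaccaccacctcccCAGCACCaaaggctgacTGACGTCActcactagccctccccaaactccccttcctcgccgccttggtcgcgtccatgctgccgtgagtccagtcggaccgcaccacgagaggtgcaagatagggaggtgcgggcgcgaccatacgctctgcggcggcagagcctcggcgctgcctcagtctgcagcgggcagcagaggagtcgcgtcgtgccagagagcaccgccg
Rap1gap2: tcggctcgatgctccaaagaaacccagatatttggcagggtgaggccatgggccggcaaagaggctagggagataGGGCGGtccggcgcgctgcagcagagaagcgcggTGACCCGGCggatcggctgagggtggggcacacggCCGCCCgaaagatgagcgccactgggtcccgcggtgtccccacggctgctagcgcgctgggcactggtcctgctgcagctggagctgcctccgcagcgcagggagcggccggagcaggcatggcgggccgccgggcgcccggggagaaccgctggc
Sdhb: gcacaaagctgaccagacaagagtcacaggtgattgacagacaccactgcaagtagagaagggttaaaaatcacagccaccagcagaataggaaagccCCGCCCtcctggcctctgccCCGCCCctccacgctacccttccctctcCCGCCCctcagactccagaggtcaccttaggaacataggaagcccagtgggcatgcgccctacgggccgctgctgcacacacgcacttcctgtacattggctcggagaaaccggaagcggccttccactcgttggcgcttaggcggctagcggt
Taldo1: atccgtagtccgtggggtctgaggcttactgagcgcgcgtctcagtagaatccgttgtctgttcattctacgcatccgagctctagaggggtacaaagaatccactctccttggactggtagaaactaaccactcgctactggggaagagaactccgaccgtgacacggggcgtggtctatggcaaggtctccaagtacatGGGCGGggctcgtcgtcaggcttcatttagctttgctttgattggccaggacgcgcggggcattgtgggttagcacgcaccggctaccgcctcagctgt

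Promoter sequences of the same length were matched for 111 of the 144 higher genes, 106 of the 158 lower genes and 12842 tested genes, and both strands were searched. GGGCGG was in 59.5% of higher, 68.9% of lower and 60.2% of all tested promoters. TGACGTCA was in 6.31% (7 promoters), 1.89% (2) and 3.03%. TGACNNNGC was in 15.3%, 17.0% and 14.4%, and CAGCACC in 11.7%, 11.3% and 7.55%. The NRF1 motif was in 4 higher promoters (3.60%), in no lower one and in 1.79% of all. The full estrogen response element was found in no promoter of a gene that changed and in 1 of all tested promoters. These shares describe letters in a window, with no test.

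In each of the cell death and signalling lists 2 or 3 members passed, where 0.721% of all tested genes were higher and 0.791% lower. Of 34 apoptosis genes 3 rose and none fell: Casp2, an initiator-type caspase, had 6.27, 6.72, 12.3 and 7.003 CPM in sham Xmo, against 4.12, 2.98 and 3.202 CPM in sham saline (log2 fold change 1.23 ± 0.24 (SE), adjusted p = 0.0256), with sham Xmo 3 far above the other 3 sham Xmo libraries. Diablo (log2 fold change 0.42, adjusted p = 0.0388) and Aifm1 (log2 fold change 0.44, adjusted p = 0.0392), both mitochondrial proteins released or active in cell death, were higher with tight groups. None of the 3 passed without sham Xmo 3, sham Xmo 4, sham saline 2 or sham saline 3, and 1 did without sham Xmo 2. Among 46 Wnt genes, 2 ligand genes rose and none fell. Wnt2 had 2.98, 4.28, 5.44 and 4.73 CPM in sham Xmo, against 1.92, 1.54 and 2.13 CPM in sham saline (log2 fold change 1.22 ± 0.22 (SE), adjusted p = 0.0197). Wnt10b had no count in any sham saline library and 0.271, 0.146, 0.381 and 0.594 CPM in sham Xmo (49 counts in all), at least 2.81-fold higher against a floor of 3 counts per sham saline library (adjusted p = 0.0398). In this list 1 member passed without sham saline 1 or sham saline 2 and none without sham Xmo 3, sham Xmo 4 or sham saline 3. Wnt3a and Dkk1 were at 0 in all 7 sham libraries. In AMPK, PI3K and mTOR signalling 1 of 33 genes rose, the stress-induced Sesn1 (68.8 ± 6.32 CPM in sham Xmo and 51.6 ± 6.25 CPM in sham saline, SD; log2 fold change 0.42 ± 0.10 (SE), adjusted p = 0.049), and 1 fell, Gsk3a (148 ± 12.2 CPM in sham Xmo and 219 ± 37.1 CPM in sham saline, SD; log2 fold change -0.56 ± 0.11 (SE), adjusted p = 0.028). Both calls were lost without sham Xmo 3, sham Xmo 4 or sham saline 3, and that of Sesn1 also without sham Xmo 2 or sham saline 2.

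Single members passed in further lists. Of all tested genes 1.51% passed, so single calls in lists of these sizes are not results about the lists. Calr (calreticulin), 1 of 24 genes of the endoplasmic reticulum stress response, was lower in sham Xmo with 256, 284, 262 and 277 CPM in sham Xmo, against 332, 320.5 and 369.6 CPM in sham saline (log2 fold change -0.34 ± 0.08 (SE), adjusted p = 0.0412); the sham Xmo values were below all 11 other libraries. Bag3, 1 of 29 heat shock and chaperone genes, was lower (4.94, 5.14, 5.16 and 6.68 CPM in sham Xmo, against 10.7, 8.84 and 9.07 CPM in sham saline; log2 fold change -0.80 ± 0.17 (SE), adjusted p = 0.0379). Npc2, a lysosomal cholesterol carrier and 1 of 38 autophagy and lysosome genes, was higher (52.3, 59.2, 57.7 and 63.7 CPM in sham Xmo, against 42.8, 45.6 and 37.03 CPM in sham saline; log2 fold change 0.48 ± 0.10 (SE), adjusted p = 0.0293). Rap1gap2, 1 of 26 Rap1 and Ras regulators, inactivates the small GTPase Rap1; it had 43.3, 49.8, 52.6 and 44.2 CPM in sham Xmo, against 131, 84.2 and 128 CPM in sham saline (log2 fold change -1.27 ± 0.23 (SE), adjusted p = 0.022), with separate groups. Lrrc10b, 1 of 14 striatum genes, and Lefty1, 1 of 29 pyramidal cell genes, were higher (log2 fold changes 0.67 and 0.81). Nek2, 1 of 37 genes of cell division and adult neurogenesis, was higher at low levels (0.881, 1.29, 0.658 and 0.693 CPM in sham Xmo, against 0.314, 0.144 and 0.164 CPM in sham saline; log2 fold change 2.04 ± 0.42 (SE), adjusted p = 0.0293). Gsk3a was also the 1 lower gene of 38 in amyloid processing and tau, Atp1b2 the 1 lower gene of 47 sodium and calcium channels and pumps, and Trhr the 1 lower gene of 7 tested pituitary and hypothalamus genes. Each of these calls was lost without sham Xmo 3, each but that of Trhr without sham saline 3, and each but those of Trhr and Bag3 without sham Xmo 4. Sham Xmo 2 ended the calls of Calr, Bag3, Npc2, Lrrc10b, Lefty1 and Nek2, sham saline 1 those of Calr, Bag3, Lrrc10b and Lefty1, and sham saline 2 those of Bag3, Lrrc10b, Lefty1 and Nek2.

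Non-neuronal cell types were measured because the dissection can carry them. Of all tested genes 0.721% were higher and 0.791% lower. Of 25 myelin genes Mog, a protein of the myelin surface, rose (92.6, 91.5, 71.7 and 69.98 CPM in sham Xmo, against 55.3, 52.2 and 43.3 CPM in sham saline; log2 fold change 0.70 ± 0.15 (SE), adjusted p = 0.0326), and the list median was 0.28. Myelin markers took 0.611 to 0.813% of counts in sham Xmo and 0.385 to 0.569% in sham saline. The myelin list holds Enpp2, which is also in the choroid plexus list. Enpp2 had 231, 724, 706 and 2365 CPM in sham Xmo, against 546, 196 and 168 CPM in sham saline. Its part in the myelin share was not tested. The shares in this paragraph are of all counts, mitochondrial counts included. Of 25 astrocyte markers Atp1b2 (log2 fold change -0.64, adjusted p = 0.0283) and Hepacam (log2 fold change -0.39, adjusted p = 0.0495) fell, while the list median was 0.08. Of 28 endothelial markers Flt1 (log2 fold change -0.55, adjusted p = 0.0418) and Vwf (log2 fold change -1.24, adjusted p = 0.0481) fell (median -0.28). Vwf (von Willebrand factor) had 13.1, 10.7, 11.6 and 12.3 CPM in sham Xmo, against 21.4, 41.5 and 22.1 CPM in sham saline, highest in sham saline 2. None of 25 microglia markers passed; the list took 0.0639 to 0.0769% of counts in sham Xmo and 0.0461 to 0.0569% in sham saline. The call of Mog, and both endothelial calls, were lost without sham Xmo 2, sham Xmo 3, sham Xmo 4 or sham saline 3, and those of Mog and Vwf also without sham saline 2, and that of Flt1 without sham saline 1, while 4 myelin genes passed without sham saline 1. Neither astrocyte gene passed without sham Xmo 3, sham Xmo 4 or sham saline 3, and 1 did without sham Xmo 1, sham saline 1 or sham saline 2. There was 1 endothelial gene past the test without sham saline 1.

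Markers of tissues around the hippocampus varied between libraries, choroid plexus most of all. Ttr (transthyretin), the major secreted protein of choroid plexus, had 90.8, 1506, 1870.1 and 8049.8 CPM in sham Xmo, against 1130.5, 403 and 163 CPM in sham saline (log2 fold change 2.35 ± 1.33 (SE), adjusted p = 0.367). Sham Xmo 4 was far above the rest and sham Xmo 1 the lowest, so the groups overlapped. None of 26 choroid plexus markers passed, their median log2 fold change was 1.21, and they took 0.0449 to 1.23% of counts in sham Xmo and 0.04099 to 0.198% in sham saline. None of 30 ependymal genes passed (median 0.54; 0.0173 to 0.0292% of counts in sham Xmo and 0.0117 to 0.0201% in sham saline), nor any of 24 meningeal genes (median 0.35; 0.0634 to 0.089005% of counts in sham Xmo and 0.0402 to 0.0622% in sham saline). The meningeal shares did not overlap between the groups (exact permutation test, two-sided p = 0.0571, the smallest possible; 0.185 adjusted over 55 lists), and the ependymal shares overlapped (p = 0.114 in the same exact test). That smallest p was reached by 17 of the 55 lists, and these totals include mitochondrial counts. No tested member of these 3 lists was at 0 in all sham libraries. Their part in the changes above was not tested. The habenula genes Chrna3 and Tac2 were high in sham Xmo 2 alone, with 1.63, 10.4, 0.866 and 0.965 CPM and 1.96, 22.5, 2.11 and 3.84 CPM in the sham Xmo libraries, against 1.64, 0.865 and 0.985 CPM and 3.88, 2.402 and 2.87 CPM in sham saline.

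Blood and neutrophil markers had 1 lower gene of 19 tested (median -0.67), where 0.791% of all tested genes were lower. S100a9, a neutrophil protein, had 0.508, 0.243, 0.0693 and 1.19 CPM in sham Xmo, against 2.06, 12.1 and 2.75 CPM in sham saline (log2 fold change -3.44 ± 0.77 (SE), adjusted p = 0.0405). Lcn2, an acute-phase protein and the 1 lower gene of 29 in the inflammation list, had 1.19, 0.755, 0.416 and 0.817 CPM in sham Xmo, against 4.65, 98.6 and 8.42 CPM in sham saline (log2 fold change -5.54 ± 0.95 (SE), adjusted p = 0.0188). Scgb3a1, a secretoglobin, had 0.237, 0.0487, 0.139 and 0.09899 CPM in sham Xmo, against 0.524, 7.54 and 0.739 CPM in sham saline (log2 fold change -4.49 ± 0.89 (SE), adjusted p = 0.0276). All 3 genes were highest in sham saline 2, while the other two sham saline libraries still exceeded sham Xmo. Without sham saline 2 none of the 3 passed, and the log2 fold change of Lcn2 was -3.04, of S100a9 -2.23 and of Scgb3a1 -2.28. The calls also ended without sham Xmo 3 or sham Xmo 4, and those of S100a9 and Scgb3a1 without sham Xmo 2 or sham saline 3; that of S100a9 ended without sham Xmo 1 as well. The blood list took 0.0617 to 0.539% of counts in sham Xmo and 0.0402 to 0.213% in sham saline, with its highest value in sham Xmo 4, and Elane was at 0 in all sham libraries. Of 57 clustered protocadherins 2 were lower, with folds that single libraries set. Pcdhga2 had 3.96, 6.33, 6.203 and 6.31 CPM in sham Xmo, against 175, 20.6 and 9.24 CPM in sham saline (log2 fold change -3.58 ± 0.67 (SE), adjusted p = 0.0242) and Pcdhgb1 had 6.77, 6.89, 6.69 and 10.7 CPM in sham Xmo, against 14.1, 122 and 15.1 CPM in sham saline (log2 fold change -2.69 ± 0.59 (SE), adjusted p = 0.0388); the high library was sham saline 1 for one and sham saline 2 for the other, and these genes overlap others of their cluster, so that their counts are uncertain. Without sham saline 1 the log2 fold change of Pcdhga2 was -1.38 and the gene still passed. Without sham saline 2 that of Pcdhgb1 was -0.92 and it did not. Neither passed without sham Xmo 2, 3 or 4, and 1 did without sham saline 2 or sham saline 3.

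The smallest p-values belonged to Gdf1 and Zfyve27, whose sham saline values lay outside those of all 12 other libraries. Zfyve27 encodes protrudin, an endoplasmic reticulum protein of neurite growth. It had 58.6, 58.5, 60.99 and 73.1 CPM in sham Xmo, against 22.5, 17.1 and 21.3 CPM in sham saline (log2 fold change 1.63 ± 0.12 (SE), adjusted p = 6.29e-06), and the OVX libraries lay at 54.3 to 70.5 CPM. Only the 3 sham saline libraries were low. Gdf1 lies within the span of Cers1, a ceramide synthase gene of neurons, and shares its transcript, so their counts are uncertain. Gdf1 had 26.5, 21.1, 42.3 and 39.2 CPM in sham Xmo, against 0.105, 0.0961 and 0.123 CPM in sham saline, from 4454 counts and 8 counts in all (adjusted p = 3.60e-08). Cers1 moved the other way, with 25.5, 36.7, 39.7 and 40.02 CPM in sham Xmo, against 77.99, 65.5 and 87.3 CPM in sham saline (log2 fold change -1.12 ± 0.16 (SE), adjusted p = 0.00788). The sum of the pair was 70.6 ± 17.7 CPM before TMM scaling in sham Xmo and 65.5 ± 15.6 CPM in sham saline (SD, n = 4 and 3), a difference smaller than the spread. Its sign depends on scaling. After TMM scaling Gdf1 and Cers1 had means of 32.3 and 35.5 CPM in sham Xmo. In sham saline they had 0.108 and 76.9 CPM, so that the sham saline sum was the higher one. Cers1 and Gdf1 were the 1 lower and the 1 higher gene of 24 in the sphingolipid list, and Zfyve27 the 1 higher gene of 20 in the protrudin list.

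Gm22133, a short feature at chr7:45458089-45458197 (GRCm38.p6) inside Ftl1, the ferritin light chain gene, showed the reverse pattern. It had 0.0339, 0.0243, 0.0347 and 0.0247 CPM in sham Xmo, against 23.5, 14.5 and 16.3 CPM in sham saline, from 4 counts and 1371 counts in all (adjusted p = 0.00679), while the OVX libraries ranged over 0.0454 to 33.6 CPM. The 4 sham Xmo libraries were the lowest, and 1 OVX library, OVX Xmo 3, was nearly as low at 0.0454 CPM. Its sum with Ftl1 was 56.3 ± 10.1 CPM before TMM scaling in sham Xmo and 84.6 ± 30.1 CPM in sham saline (SD, n = 4 and 3), and these overlapped within 1 SD. TMM scaling, with factors of 0.726 to 0.969 in sham saline, would widen this gap. Other genes with large folds in sham Xmo were 4933407K13Rik (log2 fold change 1.15, adjusted p = 0.0251), Gm26694 (log2 fold change 1.08, adjusted p = 0.0481), Il11ra2 (log2 fold change 1.05, adjusted p = 0.0398), Spata5l1 (log2 fold change 1.02, adjusted p = 0.0467), Nat8f1 (log2 fold change 1.01, adjusted p = 0.0316) and Pih1d2 (log2 fold change 0.94, adjusted p = 0.0461), all higher. Tgtp1, an interferon-induced GTPase gene, had 3.62, 4.87, 4.92 and 7.795 CPM in sham Xmo, against 2.24, 2.21 and 0.944 CPM in sham saline (log2 fold change 1.56 ± 0.34 (SE), adjusted p = 0.0366); it lies within Olfr56, as Rapgef4os2 (log2 fold change 1.35 ± 0.32 (SE), adjusted p = 0.049) lies within Rapgef4, and counts of such pairs are uncertain. Npbwr1, a neuropeptide receptor gene, was among the largest decreases (0.339, 0.609, 0.347 and 0.594 CPM in sham Xmo, against 1.29, 0.865 and 2.26 CPM in sham saline; log2 fold change -1.62 ± 0.36 (SE), adjusted p = 0.0394). Every call named in this paragraph after Gm22133 was lost without sham Xmo 3, sham Xmo 4 or sham saline 3. All but that of 4933407K13Rik were also lost without sham Xmo 2. Those of Pih1d2 and Rapgef4os2 ended whichever sham library was left out. Of the 302 genes, 26 (8.61%) had at least 50% of their span inside another feature, against 16.5% of tested genes.

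The smallest p-values among the lower genes outside the lists belonged to genes of the cytoskeleton, ubiquitin and messenger RNA. Clip3, a microtubule-associated trafficking protein, had 219, 200.02, 199 and 227 CPM in sham Xmo, against 418, 414 and 630.2 CPM in sham saline (log2 fold change -1.21 ± 0.13 (SE), adjusted p = 0.00138). Pabpc1, the cytoplasmic poly(A)-binding protein, had 114, 109, 111 and 114 CPM in sham Xmo, against 150.05, 174 and 192 CPM in sham saline (log2 fold change -0.62 ± 0.08 (SE), adjusted p = 0.00582), and the sham Xmo values were below the OVX range of 118 to 135 CPM. Ubap2l, a stress granule protein, had 96.1, 102, 103 and 109 CPM in sham Xmo, against 144, 179.6 and 184 CPM in sham saline (log2 fold change -0.72 ± 0.09 (SE), adjusted p = 0.00398). In these 3 genes the groups did not overlap, and the sham saline libraries varied more than the sham Xmo libraries. The OVX libraries lay at 224 to 304 CPM for Clip3 and 99.9 to 116 CPM for Ubap2l, below every sham saline value. Ube2r2 (log2 fold change -0.69, adjusted p = 0.00463), a ubiquitin-conjugating enzyme, and Hnrnpul1 (log2 fold change -0.61, adjusted p = 0.00582), an RNA-binding protein, were similar in size. Among higher genes, Zbed5 (log2 fold change 0.94, adjusted p = 0.0174), Tbc1d14 (log2 fold change 0.53, adjusted p = 0.0178), a regulator of autophagosome formation, and Pdlim2 (log2 fold change 0.90, adjusted p = 0.0188) had the smallest p-values outside the lists. Tbc1d14 had 79.8, 84.3, 85.8 and 94.5 CPM in sham Xmo, against 63.3, 58.5 and 56.9 CPM in sham saline, with sham saline below all 12 other libraries. Of the 94 genes that the rule names among those past the test, Gdf1 and Zfyve27 were the 2 that passed in all 15 other settings, and 39 lost their call in most of them.

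In 20 of 55 lists no member passed. They included the neurotransmission lists of 33 GABA genes (median -0.18) and 62 potassium channels (median -0.09). Gabrg3 and Gabbr2, both GABA receptor genes, had -0.48 and -0.56 as log2 fold changes (adjusted p = 0.0581 and 0.0849). Kcna1 and Kcnma1 were the potassium channel genes with the smallest p (log2 fold changes -0.33 and -0.45, adjusted p = 0.0756 and 0.0785). Among 30 immediate early genes the median was -0.18; Egr1 had 48.5, 47.6, 49.7 and 79.8 CPM in sham Xmo, against 99.2, 65.4 and 177 CPM in sham saline (log2 fold change -1.02 ± 0.34 (SE), adjusted p = 0.135), highest in sham saline 3. In the region lists, Maml2 and Marcks led 22 dentate gyrus genes (log2 fold changes 0.41 and -0.78, adjusted p = 0.0801 and 0.0849) around a median of -0.01. Thalamus and habenula genes had a median of -0.22 over 25 genes, and neocortex genes -0.35 over 20.

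Metabolic and hormonal lists were near the middle of all genes. The median was 0.10 over 37 genes of cholesterol and fatty acid synthesis, 0.11 over 14 tested genes of bile acid, LXR and FXR biology, -0.01 over 21 glucocorticoid genes and -0.04 over 21 clock genes. Their smallest adjusted p-values were 0.122 for Acss2 (log2 fold change 0.26), 0.222 for Cyp7b1 (0.28), 0.127 for Tsc22d3 (0.44) and 0.106 for Npas2 (-0.58). Interferon and antigen presentation genes had a median of 0.13 over 33 genes, with Ifi27 at 19.98, 25.9, 32.7 and 43.6 CPM in sham Xmo, against 19.7, 22.4 and 14.7 CPM in sham saline (log2 fold change 0.69 ± 0.22 (SE), adjusted p = 0.12). The matrix list of 51 genes (0.07), splicing and nuclear RNA genes (42, -0.14), replication-dependent histones (13 tested, 0.27), oligodendrocyte precursors (15, -0.06), microglia (25, 0.15) and pericytes (20, -0.07) had no member past the test either. Fn1, a matrix gene, had 43.05, 33.04, 45.05 and 56.2 CPM in sham Xmo, against 69.1, 74.03 and 83.5 CPM in sham saline (log2 fold change -0.77 ± 0.21 (SE), adjusted p = 0.0695).

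Whether the same genes answered to Xmo without ovaries was tested as the difference between the sham effect and the OVX effect in the same fit. That difference passed for 83 genes (0.416% of 19969), and 67 of these were among the 302. The difference contains the sham effect that chose the 302, so this overlap is no independent support. In OVX mice alone no gene passed (0%; edgeR, smallest adjusted p 0.301, with 834 genes at an unadjusted p under 0.05). Of the 144 genes higher in sham Xmo 29 had a log2 fold change above 0 in OVX mice, and of the 158 lower genes 24 had one below 0. The median OVX log2 fold changes were small, -0.08 and 0.13. The same shares over all tested genes were not counted, so whether these counts depart from them was not tested. The sham and OVX comparisons share no library.

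Rap1gap2 and Trhr were among the genes whose log2 fold changes had opposite signs in sham and OVX mice. Neither passed in OVX mice alone, so a reversed effect there was not shown. The OVX log2 fold change of Trhr was 0.82 ± 0.29 (SE, edgeR adjusted p = 0.998). Rap1gap2 was at 47.5 ± 4.45 CPM in sham Xmo and 115 ± 26.3 CPM in sham saline (SD, n = 4 and 3), and 154, 137, 62.9 and 136 CPM in OVX Xmo, against 48.5, 56.8, 64.7 and 59.2 CPM in OVX saline (difference of log2 fold changes -2.37 ± 0.32 SE, adjusted p = 0.00713). Trhr had 2.54, 2.25, 3.67 and 4.07 CPM in OVX Xmo, against 1.68, 1.83, 1.66 and 1.87 CPM in OVX saline (difference -2.84 ± 0.43 SE, adjusted p = 0.0236). The Trhr values of OVX Xmo all lay above those of OVX saline, the reverse of the sham groups. For Rap1gap2 this held for 3 of the 4 OVX Xmo libraries, while OVX Xmo 3 lay within the OVX saline range. How many of all tested genes separate in this way in OVX mice was not counted. Syn1 had 452, 328, 449 and 379 CPM in OVX Xmo, against 316, 302, 345 and 361 CPM in OVX saline (difference -1.45 ± 0.24 SE, adjusted p = 0.0304), with the 2 highest libraries of all 15 in sham saline. Of the 8 synaptic vesicle genes lower in sham Xmo, 6 passed the difference test, against 67 of all 302 genes. Of the 8 protein genes of the mitochondrial genome none did. All these genes were chosen by the sham effect, which the difference contains, so these counts are no independent test. The count of 83 fell to 6 without OVX Xmo 4, OVX saline 1 or sham Xmo 3 and was 302 without sham Xmo 1; it was 255 without sham saline 2, 49 without OVX Xmo 1, 35 without OVX saline 3, 19 without OVX saline 4, 14 without sham Xmo 4, 12 without sham saline 3, 9 without OVX Xmo 3 and 7 without OVX saline 2.

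**Figure D5:**
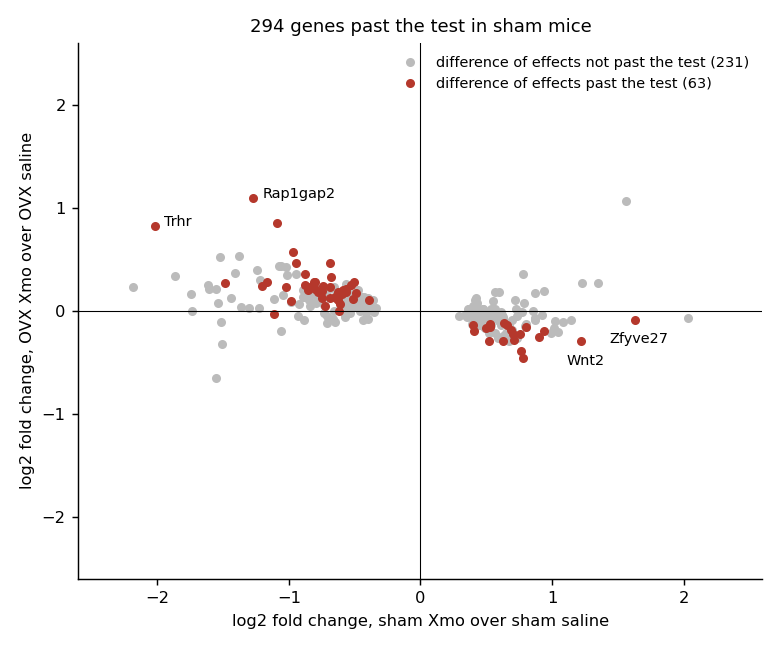
log2 fold change of OVX Xmo over OVX saline (vertical axis) against sham Xmo over sham saline (horizontal axis) for 294 of the 302 genes past the test in sham mice; 8 genes lie beyond 2.6 on an axis. Red points are the 63 plotted genes whose difference between the effects passed the test; most points lie near 0 on the vertical axis.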

How the data were processed

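Hippocampal RNA of ICR mice was extracted with Trizol and made into TruSeq libraries, as the labels' protocols state. Tools named in the submitters' processing notes are FastQC 0.11.2, Trimmomatic 0.36, Bowtie2 2.3.2, StringTie 1.3.3b with the build GRCm38.p6, without their roles; no source used here states the use of strand. The deposited table gives whole read counts per gene, not normalized, and the deposited TPM of each library, which were used only for relative transcript length. A miRNA table was not used, and 12 per-sample columns of the gene table that match no sample were left out.

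Counts of 15 libraries (20848661 to 39140593 counts each) were fitted by group with edgeR 4.0.16 (R 4.3.3; TMM, filterByExpr, quasi-likelihood test, 11 residual degrees of freedom), keeping 19969 of 51826 features. Contrasts were sham Xmo minus sham saline, and that effect minus the OVX effect. Fold changes of low genes depend on the prior count of edgeR. Shares of counts were compared by an exact two-sided permutation test. The fit was tested on simulated data. Alternatives were DESeq2 1.42.0, limma 3.58.1 voom with quality weights, other filters and scalings, the sham libraries alone, a replicate block and leaving out each library.

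The members and the 55 gene lists were chosen with earlier results of these data known. Genes are named by rule. Among those past the test without overlap and with a mean of at least 1 CPM in 1 group, the 12 higher and 12 lower with the largest fold, the 6 higher and 6 lower with the smallest p, and the 2 predicted features each way with the largest fold are named. Besides these come up to 6 members per list (the 2 with the smallest p where none passed), and 12 genes whatever their result (Nqo1, Hmox1, Gclc, Nfe2l2, Esr1, Pgr, Bdnf, Zfyve27, Gdf1, Cers1, Ttr and Lcn2). Wnt10b and Nek2 (means under 1 CPM) and mt-Nd4 (groups overlapping) are named as list members past the test although they miss those limits. Some genes that the rule names are not reported here. No replicates were identical. Depth limits low genes most: the floor used for genes without a count was 3 counts per library, and it covers counting error only.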

Additional observations from a re-analysis of the deposited data

Results flagged for a closer look

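For 35 genes named here the Xmo effect differed between sham and OVX mice (difference of log2 fold changes, sham minus OVX, edgeR adjusted p under 0.05). The difference was positive for Gdf1 (8.19), Zfyve27 (1.72), Zbed5 (1.13), Tbc1d14 (0.67), Taldo1 (0.75), Sdhb (0.65), Pdlim2 (1.16), Atp5e (0.96), Wnt2 (1.52), Rpl8 (0.87), Rps14 (0.98), Rpl10 (0.69) and Maml2 (0.81). It was negative for Clip3 (-1.45), Ubap2l (-0.77), Ube2r2 (-0.92), Pabpc1 (-0.62), Hnrnpul1 (-0.68), Gm22133 (-8.59), Cers1 (-1.08), Syn1 (-1.45), Vamp2 (-1.07), Trhr (-2.84), Pclo (-0.79), Lcn2 (-8.02), Sncb (-1.23), Rap1gap2 (-2.37), Psme3 (-0.50), Cacng2 (-1.01), Nrg3 (-0.66), Rab3a (-0.78), Nefm (-0.78), S100a9 (-7.16), Dlgap4 (-0.78) and Adra2a (-1.15). Maml2 is the 1 gene of these that did not pass in sham mice alone. Lcn2 and S100a9 rest on sham saline 2 and on OVX saline libraries at or near 0 (2 of 4 at 0 for Lcn2 and 3 of 4 for S100a9), and Gdf1 and Gm22133 on 8 and 4 counts in 1 group. The differences of these 4 genes depend on the prior count of edgeR and do not measure a size.

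Single sham Xmo libraries lay far from the other 3 in 15 of 158 groups of 4 values examined by Dixon's test; chance marks about 1 in 20 groups. Sham Xmo 1 was low for Pcdhga2 (3.96 CPM), Prdx5 (80.7 CPM), Prdx6 (119 CPM) and Lefty1 (5.66 CPM) and high for Rgs5 (171 CPM), and it had the lowest share of counts for nuclear complex II to V subunits (0.461%) and for NRF2 targets and antioxidant enzymes (0.415%). Sham Xmo 2 was high for Tmem212 (5.16 CPM), Chrna3 (10.4 CPM) and Tac2 (22.5 CPM). Sham Xmo 3 was high for Casp2 (12.3 CPM). Sham Xmo 4 was high for Bag3 (6.68 CPM), Pcdhgb1 (10.7 CPM) and Egr1 (79.8 CPM) and for the share of blood markers (0.539%).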

How the results depend on the processing

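The count of 302 genes (144 higher, 158 lower) was 332 with DESeq2 size factors (134 and 198), 280 without mitochondrial genome counts and 421 with a mean of at least 1 CPM required (180 and 241). It was 108 with no filter on low counts (41 and 67), 6 with the 7 sham libraries alone (2 and 4), 1110 with DESeq2 (566 and 544) and 583 with voom (280 and 303). Leaving out 1 sham library gave 14 to 673 genes (2 to 380 higher, 12 to 293 lower). The difference between the sham and OVX effects passed for 83 genes, for 122 with DESeq2 size factors, 20 with no filter and 852 with DESeq2, and for 6 to 302 without 1 library. Fewer samples, or more genes tested, come with some of these settings; otherwise the cause was not tested. Of 94 named genes past the test none reversed. Most had sham groups without overlap, so their sign could hardly change, and this is no separate support. Their fits under other settings passed in 806 cases and did not in 588. Values that changed sign, none past the test, were those of Chrna3 without sham Xmo 2 (range -0.0526 to 1.92 without 1 library), Tac2 without sham Xmo 2 (-0.23 to 1.63), Hmox1 with voom (0.03402) and without sham Xmo 1 (-0.23 to 0.0572), and Bdnf with no filter (0.00896) and without sham Xmo 2, sham Xmo 4 or sham saline 3 (-0.0821 to 0.0816). With mitochondrial counts left out of the total, the difference in share turned to -0.134 percentage points for pan-neuronal markers, -0.0143 for thalamus and habenula genes and -0.0186 for endothelial markers.

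Replicate numbers did not pair the samples: same-numbered sham libraries had deviations correlated at -0.14, 0.07 and 0.07. With the number as a replicate block, 37 genes passed in sham mice (7 higher, 30 lower), and 11 passed the difference between sham and OVX effects.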

Other observations

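Of the 302 genes past the test in sham mice, 226 were in none of the lists. The genes named here were chosen after their values were seen, and the numbers in parentheses are log2 fold changes of sham Xmo over sham saline. Lower in sham Xmo were the RNA polymerase II gene Polr2a (-0.92), the chromatin gene Brd3 (-0.74), the microRNA-processing nuclease gene Drosha (-0.43), the cytoskeleton genes Map1a (-0.71), Map1b (-0.60), Map6 (-0.49), Actb (-0.61), Tubb4a (-0.61) and Wasf1 (-0.83), and the signalling genes Prkaca (-0.59), Gnao1 (-0.45) and Gnai2 (-0.47). Polr2a, the largest subunit of RNA polymerase II, had 62.3, 69.99, 89.02 and 98.8 CPM in sham Xmo, against 127, 154 and 173 CPM in sham saline. Higher in sham Xmo were the mitochondrial enzymes and carriers Idh2 (0.49), Oat (0.41), Slc25a5 (0.45), Acad9 (0.43) and Chchd2 (0.60), the lysosomal and endosomal genes Atp6v0b (0.54), Lamtor5 (0.41) and M6pr (0.37), and Cst3, which encodes the protease inhibitor cystatin C, with 863, 830.1, 1067 and 1028 CPM in sham Xmo, against 631, 583 and 535 CPM in sham saline.

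In 19 of the 302 genes the sham Xmo libraries, and not the sham saline libraries alone, stood apart: their 4 values lay outside those of all 11 other libraries. Of these, 13 were lower and 6 higher. The pattern held in 0.381% of all tested genes. It requires sham groups without overlap, which nearly all genes past the test had. Tenm2, a teneurin of synaptic contacts, had 85.3, 79.95, 85.6 and 87.3 CPM in sham Xmo, against 153, 112 and 179 CPM in sham saline, with OVX libraries at 89.7 to 135 CPM. Otof (otoferlin) had 5.22, 6.43, 5.51 and 4.33 CPM in sham Xmo, against 9.71, 11.002 and 11.2 CPM in sham saline, with OVX libraries at 7.26 to 10.9 CPM. Wbp2 had 129.5, 159.6, 158 and 165 CPM in sham Xmo, against 249, 221 and 301 CPM in sham saline, with OVX libraries at 170.2 to 226 CPM. Among the higher ones, Cd9, a tetraspanin, had 45.2, 49.3, 47.5 and 51.7 CPM in sham Xmo, against 39.8, 26.9 and 27.7 CPM in sham saline, with OVX libraries at 31.8 to 41.5 CPM, Ctnnal1 had 28.7, 29.3, 25.4 and 41.5 CPM in sham Xmo, against 20.7, 16.7 and 16.8 CPM in sham saline, with OVX libraries at 18.6 to 24.6 CPM, and Acad8, a mitochondrial dehydrogenase of valine breakdown, had 19.6, 20.3, 24.01 and 27.6 CPM in sham Xmo, against 16.2, 14.7 and 13.96 CPM in sham saline, with OVX libraries at 13.8 to 18.96 CPM. Pabpc1, Gm22133, Vamp2, Trhr, Prag1, Tmem8b, Trim9, Npbwr1, Calr and Pacsin1 (lower) and Plekhg3, Tgtp1 and Pih1d2 (higher) complete the 19. The calls of Npbwr1, Calr, Tgtp1 and Pih1d2 were lost without sham Xmo 2, sham Xmo 3, sham Xmo 4 or sham saline 3. That of Trhr was lost without sham Xmo 3.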
